A study of Mus musculus with 2 samples.

Results

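Glycolysis splits glucose into pyruvate in the cytosol, the pentose phosphate pathway branches from it to make NADPH and ribose, and pyruvate leaves either as lactate or, through the pyruvate dehydrogenase complex, into the citric acid cycle of mitochondria. Activated T cells are known for turning glucose largely into lactate even when oxygen is present. In T helper 17 (Th17) cells the transcription factor HIF-1 is known to switch on many of the transporters and enzymes followed here. The genes were taken from a list of 35 mouse symbols covering glucose uptake, glycolysis, lactate export, the pyruvate dehydrogenase step and the pentose phosphate pathway. Entrez identifiers of 34 of the 35 were found among the 13056 annotated genes of the deposited expression table. Gapdh, which encodes glyceraldehyde 3-phosphate dehydrogenase, was not analysed here. All 34 genes found exceeded 1 FPKM (fragments per kilobase of transcript, a level corrected for gene length and library size) in at least 1 library, as did 10645 of all annotated genes.

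CD4+ T cells were taken from C57BL/6 mice of wild type genotype at 6 to 8 weeks of age, and RNA was made from them after 48 h of culture under Th17 differentiation conditions. In the control culture the antigen presenting cells (APCs) were wild type (WT-APC), and in the other they carried an OX40L transgene (OX40L-TG-APC). OX40L is the ligand of OX40, a costimulatory receptor of T cells, and the promoter of the transgene is not given in the sources used here. Each condition had a single library (n = 1), so replicate error is unknown, no test between conditions was possible, and each value compares these 2 libraries only. Ratios carry 95% exact intervals that cover counting error only, from estimated library sizes of 24200000 (WT-APC) and 27700000 (OX40L-TG-APC) fragments.

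The T cell label was matched by the marker genes. The 13 T cell markers found had a summed level of 2661 FPKM in the WT-APC library and 2873 FPKM in the OX40L-TG-APC library, and none was at 0. None of them reached 2-fold, and Cd2 (248 and 407 FPKM), Cd28 (217 and 142 FPKM) and Cd4 (201 and 246 FPKM) were among those with larger changes. B cell markers (10 found) summed to 55.0 and 23.3 FPKM, and 14 myeloid and dendritic cell markers to 17.5 and 8.29 FPKM, so both sums were lower with OX40L-TG APCs. At least 2-fold lower were 4 of the 9 kept B cell markers, among them Cd79a (6.52 to 2.20 FPKM), Blk and Fcrla. So were 3 of the 5 kept myeloid and dendritic markers, Lyz2 (4.55 to 1.01 FPKM), Tyrobp and Flt3, against 1.32% of all annotated genes. Cd68, also among the 5 kept, was slightly higher (2.25 to 2.44 FPKM). So was Zbtb46, which stayed under 1 FPKM (0.788 to 0.934 FPKM). Clec9a was near the floor in both libraries, at 0.0249 FPKM (WT-APC) and 0 (OX40L-TG-APC). Erythroid markers (5 found) summed to 40.6 and 78.3 FPKM, with Hbb-bs at least 2-fold higher (23.4 to 52.7 FPKM). The part of these other cells in the values below was not tested, and in RNA pooled over many cells fewer cells of a type and less RNA per cell cannot be told apart. Tnfsf4, the OX40L gene, stood at 2.70 (WT-APC) and 2.14 FPKM (OX40L-TG-APC).

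The genes that bring glucose in and start its breakdown were, by median though not at every step, further above their WT-APC level than those of the later branches. Slc2a3, a glucose transporter gene, and Aldoc, an aldolase gene, exceeded their WT-APC level by 2-fold or more with 1 FPKM added to each value (the log2(FPKM + 1) scale used for all changes below), and none of the 34 genes was at least 2-fold lower. Over all 10645 annotated genes, 2.26% were at least 2-fold higher and 1.32% at least 2-fold lower. At 1.5-fold, 9 of the 34 were higher and none was lower, against 7.21% and 3.38% of all genes. The median log2 change over the 34 genes was 0.39, and over all annotated genes it was 0.11. Of the 34 genes, 33 lay above the median of all genes, as did 5322 of the 10645 by construction. The exception was Pfkfb3. Such a share was not particular to these genes. In lists described below, 16 of 18 citric acid cycle genes and 21 of 23 oxidative phosphorylation genes also lay above that median, as did 6 of 12 regulators of glycolysis. Scaling matters for the smallest differences, since with the total FPKM of annotated genes set equal the log2 changes of Pfkl, Pgd, Rpe and Taldo1 turned to between -0.05 and -0.01, and 29 of the 34 genes stayed above 0. Under that scaling the median of all genes was -0.05 and that of the 34 genes 0.22. The distance between the medians, 0.27, could hardly change, since a single factor is applied to every gene, and it is no test of the difference.

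The medians by stage ran from 1.16 for the 2 glucose transporters and 0.59 for the 11 genes of upper glycolysis, from hexokinase to triose phosphate isomerase, through 0.45 for the 5 genes of lower glycolysis found. They came to 0.41 for the 4 lactate genes, 0.29 for the 5 genes at the pyruvate dehydrogenase step and 0.25 for the 7 pentose phosphate genes. The upper glycolysis median was the value of Pfkfb4, a gene at 3.15 and 5.24 FPKM. By summed FPKM the ratios of the stages were 2.21, 1.43, 1.40, 1.31, 1.22 and 1.31 in the same order. By that measure upper and lower glycolysis were close, and the pentose phosphate genes were level with the lactate genes. Single steps did not all follow the order of the stages. In upper glycolysis the ratio was 1.20 for Gpi1 and 0.964 for the sum of Pfkfb3 and Pfkfb4, against 1.63 for enolase in lower glycolysis. The order of the stages thus depends on the measure and is a description of these 2 libraries. The level plot and the ratio plot show the genes in pathway order.

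**Figure D1:**
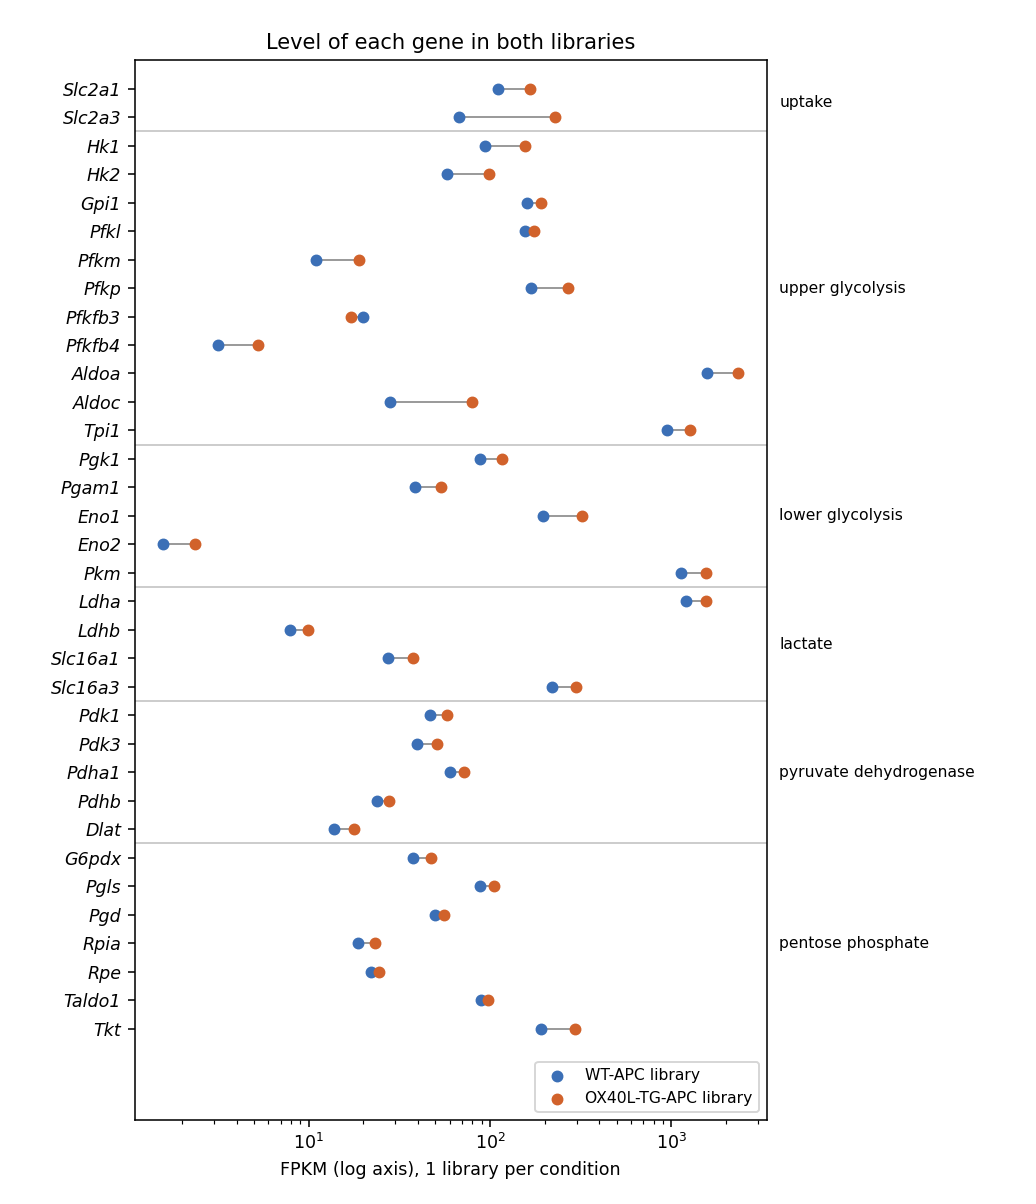
FPKM of each of the 34 genes (log axis) in the WT-APC library (blue) and the OX40L-TG-APC library (orange), 1 library each, grouped by pathway stage. The orange point lies to the right of the blue one for 33 genes, and to its left for Pfkfb3, and with the total FPKM of annotated genes set equal Pfkl, Pgd, Rpe and Taldo1 would lie to the left as well.

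**Figure D2:**
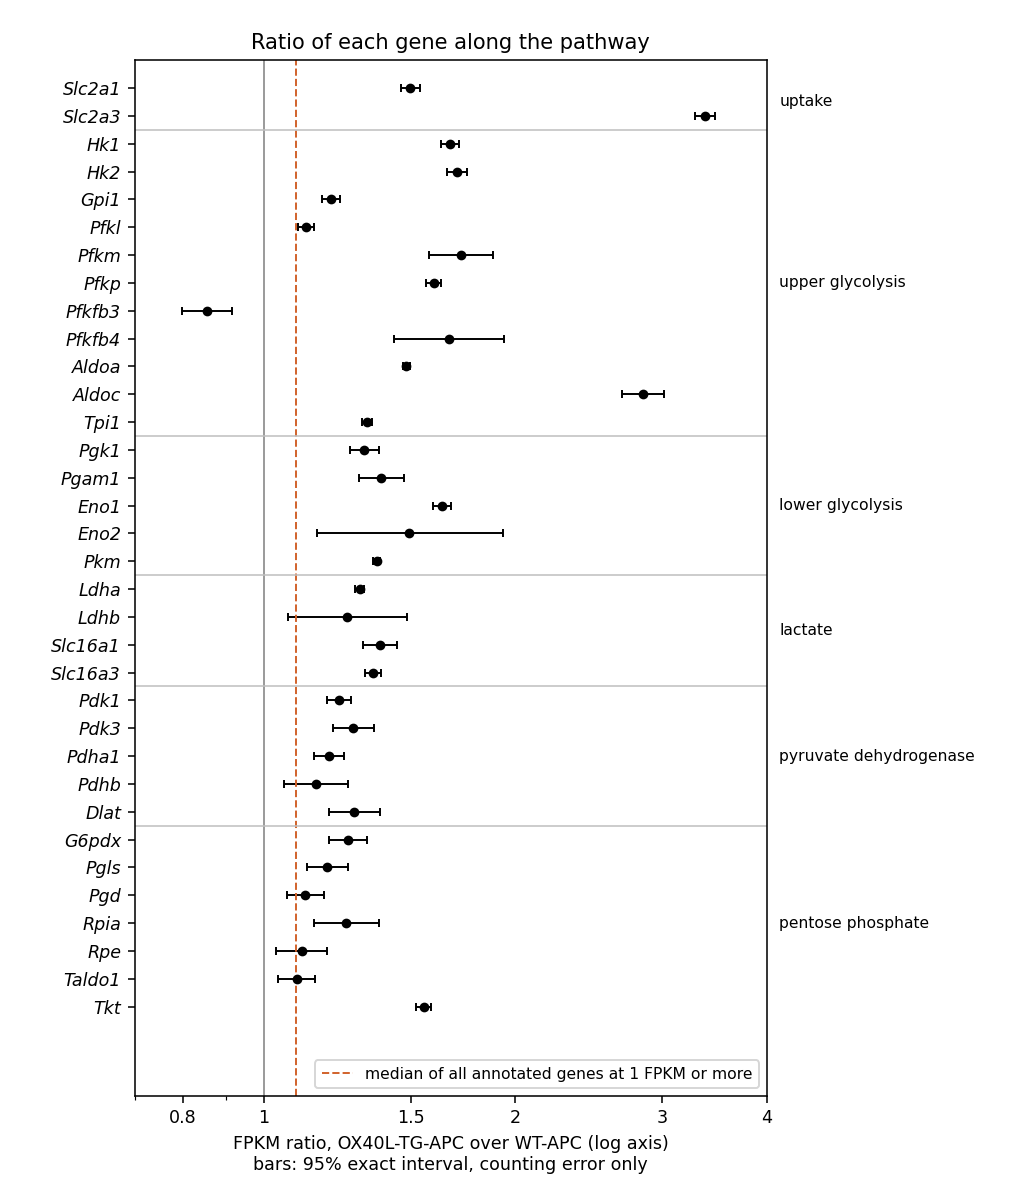
FPKM ratio of each gene, OX40L-TG-APC over WT-APC (log axis), with the 95% exact interval for counting error, beside the median ratio of all annotated genes at 1 FPKM or more (dashed line, 1.09). The intervals of 28 genes lie wholly to the right of the dashed line, those of 5 include it, and that of Pfkfb3 lies to its left.

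Promoter sequences are given for the genes with the largest changes that have an entry in the RefSeq promoter table and, for contrast, for the gene whose change lay nearest to the median of all genes. They show the letters ACGTG or GCGTG, the core of the element that HIF-1 binds, in capitals on either strand (CACGT and CACGC are the same letters read on the other strand). Each is the 250 bases before the RefSeq transcription start (GRCm38.p6), 5′ to 3′ on the strand of the gene. Aldoc lies at chr11:78323948-78324197 (plus strand), Hk2 at chr6:82774455-82774704 (minus strand) and Taldo1 at chr7:141391910-141392159 (plus strand). Slc2a3 is not shown.
Aldoc: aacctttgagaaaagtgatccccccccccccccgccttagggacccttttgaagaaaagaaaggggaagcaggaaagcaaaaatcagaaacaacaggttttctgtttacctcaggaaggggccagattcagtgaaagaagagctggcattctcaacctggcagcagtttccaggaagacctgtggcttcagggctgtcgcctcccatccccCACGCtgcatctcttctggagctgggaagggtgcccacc
Hk2: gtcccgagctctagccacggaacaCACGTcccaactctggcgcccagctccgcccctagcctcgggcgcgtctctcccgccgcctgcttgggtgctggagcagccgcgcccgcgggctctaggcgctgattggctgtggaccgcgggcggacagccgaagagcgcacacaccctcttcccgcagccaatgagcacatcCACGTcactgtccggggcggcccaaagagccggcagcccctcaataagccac
Taldo1: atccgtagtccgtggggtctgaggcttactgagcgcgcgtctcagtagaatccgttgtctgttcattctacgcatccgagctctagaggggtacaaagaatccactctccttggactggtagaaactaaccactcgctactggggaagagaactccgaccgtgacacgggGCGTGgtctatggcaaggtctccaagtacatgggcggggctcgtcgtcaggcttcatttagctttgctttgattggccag

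Aldoc and Taldo1 held 1 match each and Hk2 held 2. Among the 33 genes with an entry, 25 (75.8%) held at least 1 match in this window, against 59.0% of the 8566 annotated genes at 1 FPKM or more with an entry. Ldha had 5 matches, and Pdk3 and Slc16a1 had 4 each. A CACGTG holds the core letters on both strands and was counted as 2 matches. Ldha held 2 such sites and Slc16a1 held 1, whereas Pdk3 had 0, so the match numbers overstate the separate sites in Ldha and Slc16a1. Hk1, Aldoa and Tpi1 had no match. The E-box CACGTG, which MYC binds and which contains ACGTG, was present in 3 of the 33 (9.09%), namely Ldha, Pfkm and Slc16a1, and in 8.83% of all such genes. These matches describe letters only.

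Glucose enters T cells mainly through GLUT1, encoded by Slc2a1, and GLUT3, encoded by Slc2a3. The level of Slc2a1 was 111 FPKM in the WT-APC library and 166 FPKM in the OX40L-TG-APC library, a ratio of 1.498 (1.46 to 1.54). Slc2a3 (Entrez 20527, chromosome 6, 122727808 to 122742745 as the table prints its locus) stood at 67.4 and 228 FPKM, for a ratio of 3.38 (3.29 to 3.47). Its log2 change of 1.74 had rank 49 among all 10645 genes. The authors' deposited table of their comparison lists Slc2a3 with a log2 ratio of 1.79 and a p-value of 5e-05, which compares the 2 libraries. The order of the transporters thus differed between the libraries. Slc2a3 made up 37.8% (37.1 to 38.6) of the summed FPKM of the pair with WT APCs and 57.9% (57.4 to 58.4) with OX40L-TG APCs. The summed level of the pair was 2.21 times as high (2.17 to 2.25).

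Hexokinases trap glucose in the cell as glucose 6-phosphate. Hk1, the broadly expressed form, had 93.4 FPKM with WT APCs and 156 FPKM with OX40L-TG APCs, a ratio of 1.67 (1.63 to 1.71). For Hk2, the inducible form, the values were 58.1 and 98.9 FPKM, for a ratio of 1.70 (1.66 to 1.75). The intervals of the ratios overlapped, and the share of Hk2 in the pair was 38.3% (37.6 to 39.1) and 38.8% (38.2 to 39.3). Gpi1, whose enzyme converts glucose 6-phosphate to fructose 6-phosphate, was higher by less, at 159.7 and 192 FPKM, for a ratio of 1.20 (1.17 to 1.23).

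Phosphofructokinase commits sugar to glycolysis, and its liver (Pfkl), muscle (Pfkm) and platelet (Pfkp) subunits assemble into tetramers. Pfkp was measured at 168 FPKM with WT APCs and 269 FPKM with OX40L-TG APCs, a ratio of 1.597 (1.56 to 1.63). Pfkl stood at 156 and 175 FPKM, for a ratio of 1.12 (1.10 to 1.15). Pfkm was low in both libraries, at 11.03 and 18.97 FPKM, with a ratio of 1.72 (1.57 to 1.88). The platelet and liver forms had similar levels with WT APCs, and the platelet form was the more abundant with OX40L-TG APCs. The share of Pfkp went from 50.2% (49.6 to 50.8) to 58.1% (57.6 to 58.6), and that of Pfkl from 46.5% (45.9 to 47.1) to 37.8% (37.4 to 38.2). The loci printed for Pfkm and Pfkp hold a further protein-coding gene each. Of the 50-base stretches in Pfkp transcripts, 16.3% also occurred in transcripts of another gene, against 0.054% for Pfkl. The intervals of these shares do not cover that uncertainty.

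The bifunctional PFKFB enzymes set the level of fructose 2,6-bisphosphate, a strong activator of phosphofructokinase. Pfkfb3, whose product mostly makes this activator, was the gene of the 34 with a lower level, at 20.01 FPKM with WT APCs and 17.1 FPKM with OX40L-TG APCs, a ratio of 0.854 (0.797 to 0.915). Pfkfb4 stood at 3.15 and 5.24 FPKM, for a ratio of 1.67 (1.43 to 1.94). The 2 genes thus differed in opposite directions, and neither reached 2-fold. Their summed level had a ratio of 0.964 (0.906 to 1.03), the only one of the step totals computed whose interval included 1. The share of Pfkfb4 in the pair was 13.6% (12.1 to 15.2) with WT APCs and 23.5% (21.7 to 25.3) with OX40L-TG APCs.

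Aldolase cleaves fructose 1,6-bisphosphate into triose phosphates. Aldoa, the main form, was the most abundant of the 34 genes in both libraries, at 1573 and 2329 FPKM, for a ratio of 1.48 (1.47 to 1.496). Its rank by level among all genes was 25 in the WT-APC library and 19 in the OX40L-TG-APC library. Aldoc, the form best known from brain (Entrez 11676, chromosome 11, printed locus 78324197 to 78327045), stood at 28.1 and 80.03 FPKM, for a ratio of 2.85 (2.69 to 3.02). Its log2 change was 1.48, rank 82 of all genes. The authors' deposited table, which compares the same 2 libraries, gives Aldoc a log2 ratio of 1.54 and a p-value of 0.00015. Aldoc remained a small part of the aldolase pool, at 1.76% (1.67 to 1.85) and 3.32% (3.23 to 3.41). Tpi1, whose enzyme interconverts the triose phosphates, stood at 950.3 and 1263 FPKM, for a ratio of 1.33 (1.31 to 1.35), at a printed locus of 2 genes.

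Lower glycolysis recovers ATP from the trioses. Pgk1, which encodes phosphoglycerate kinase, stood at 88.4 FPKM (WT-APC) and 117 FPKM (OX40L-TG-APC), a ratio of 1.32 (1.27 to 1.37). Pgam1, the phosphoglycerate mutase gene, had 38.8 and 53.6 FPKM, for a ratio of 1.38 (1.30 to 1.47). Eno1, the main enolase gene, was higher by more, at 196 and 319.9 FPKM, for a ratio of 1.64 (1.595 to 1.68). Eno2, the neuronal enolase gene, was the least abundant of the 34, at 1.58 and 2.36 FPKM. Its ratio of 1.49 had the widest interval of this group, from 1.16 to 1.93. Pkm, the pyruvate kinase gene, stood at 1134 and 1547 FPKM, for a ratio of 1.36 (1.35 to 1.38). Its splice forms PKM1 and PKM2 are not separated in a table of genes, and its printed locus holds 4 protein-coding genes.

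Several of these levels are uncertain because near-identical copies exist. Of the 50-base stretches in the RefSeq-linked transcripts of Eno1, 72.2% also occurred in annotated transcripts of other genes (GENCODE M21). That share was 68.0% for Pgk1, 41.5% for Pgam1 and 36.3% for Pkm, but 11.2% for Aldoa and 15.9% for Ldha. How the authors treated fragments that fit several genes is not given in the sources used here. The levels of Pgk1, Pgam1 and Eno1 relative to Aldoa or Ldha are therefore not read further. For 19 of the 34 genes the share was under 5%, and 18 of these 19 lay above the median of all genes, with a median change of 0.43. Both genes at 2-fold, Slc2a3 and Aldoc, had no such shared stretch and a printed locus of 1 gene.

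Lactate dehydrogenase turns pyruvate into lactate and restores NAD+. Ldha, which encodes the muscle-type subunit, stood at 1198 FPKM with WT APCs and 1560.2 FPKM with OX40L-TG APCs, a ratio of 1.30 (1.29 to 1.32). Ldhb, the heart-type subunit gene, stood at 7.90 and 9.95 FPKM, for a ratio of 1.26 (1.07 to 1.49). The subunit mix was almost entirely Ldha, with 99.3% (99.26 to 99.4) and 99.4% (99.3 to 99.4) of the summed FPKM. Lactate leaves through monocarboxylate transporters. Slc16a3, which encodes the exporter MCT4, stood at 219.8 and 297 FPKM, for a ratio of 1.35 (1.32 to 1.38), and Slc16a1, which encodes MCT1, at 27.4 and 37.7 FPKM, for a ratio of 1.38 (1.31 to 1.44). The share of Slc16a3 in the pair was 88.9% (88.5 to 89.3) with WT APCs and 88.7% (88.4 to 89.1) with OX40L-TG APCs. The 4 lactate genes thus had ratios within a narrow range, from 1.26 to 1.38, and the make-up of both pairs hardly differed between the libraries. The locus printed for Slc16a3 holds 2 coding genes, and 27.0% of the 50-base stretches of Ldhb also occurred in another gene.

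**Figure D3:**
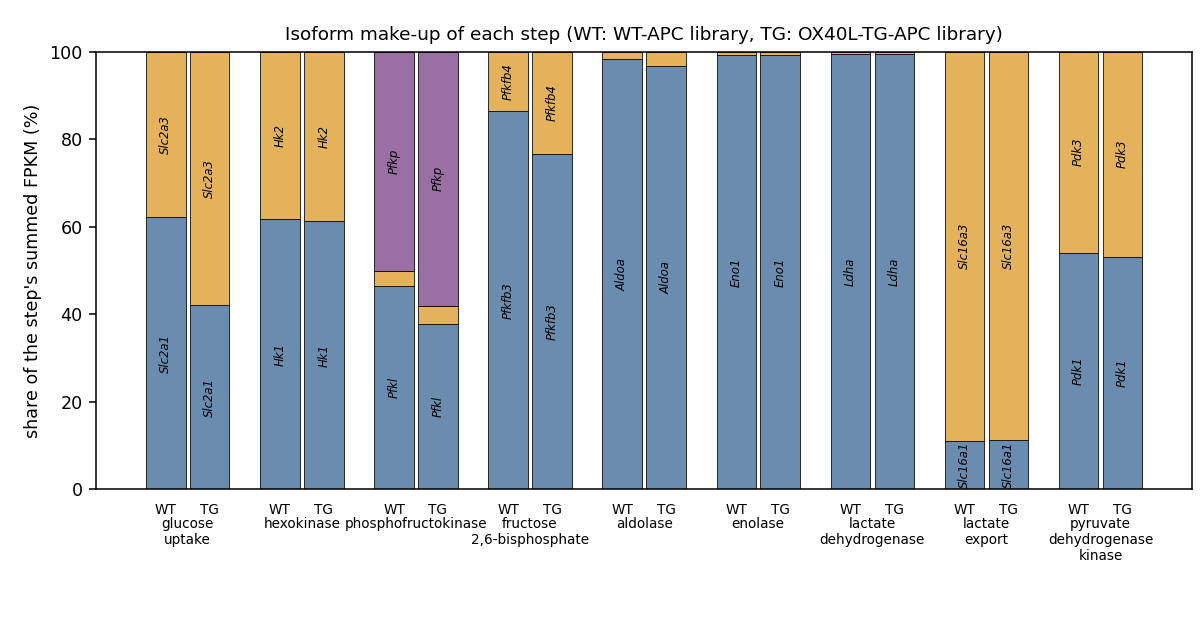
Share of each isoform in the summed FPKM of its step (%), WT-APC library (WT) beside OX40L-TG-APC library (TG). Slc2a3 goes from 37.8% to 57.9%, Pfkp from 50.2% to 58.1% and Pfkfb4 from 13.6% to 23.5%, while the hexokinase, enolase, lactate dehydrogenase, lactate export and pyruvate dehydrogenase kinase pairs differ by under 1 percentage point (the unlabelled narrow segments are Pfkm, Aldoc, Eno2 and Ldhb).

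The pyruvate dehydrogenase complex feeds pyruvate into mitochondria, and pyruvate dehydrogenase kinases switch it off. Pdk1, a kinase gene induced by HIF-1, stood at 46.8 FPKM (WT-APC) and 57.6 FPKM (OX40L-TG-APC), a ratio of 1.23 (1.19 to 1.27). For Pdk3 the values were 39.8 and 50.8 FPKM, for a ratio of 1.28 (1.21 to 1.35). The complex itself differed by a similar amount. Pdha1, the E1 alpha subunit gene, had 60.4 and 72.3 FPKM, for a ratio of 1.20 (1.15 to 1.25), at a printed locus of 2 coding genes. Pdhb, the E1 beta subunit gene, stood at 23.9 and 27.6 FPKM, for a ratio of 1.15 (1.06 to 1.26), and Dlat, the E2 subunit gene, at 13.8 and 17.7 FPKM, for a ratio of 1.28 (1.20 to 1.38). The summed kinase level had a ratio of 1.25 (1.22 to 1.29) and the summed complex level 1.20 (1.16 to 1.24), and these intervals overlapped.

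In the oxidative branch of the pentose phosphate pathway, 3 enzymes make NADPH from glucose 6-phosphate. G6pdx, which encodes the entry enzyme glucose 6-phosphate dehydrogenase, stood at 37.4 and 47.1 FPKM, for a ratio of 1.26 (1.20 to 1.33). Its printed locus is a merged stretch that overlaps 34 protein-coding genes. Pgls, the lactonase gene, had 88.2 and 105 FPKM, for a ratio of 1.19 (1.13 to 1.26), and Pgd, the phosphogluconate dehydrogenase gene, 50.04 and 56.1 FPKM, for a ratio of 1.12 (1.07 to 1.18). The summed FPKM of the branch had a ratio of 1.19 (1.15 to 1.22), beside 1.13 for the summed FPKM of all annotated genes.

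The non-oxidative branch converts pentoses and glycolytic sugars into each other. Tkt, which encodes transketolase, had the highest ratio of the 7 pentose phosphate genes, at 190.3 FPKM with WT APCs and 295 FPKM with OX40L-TG APCs, a ratio of 1.55 (1.52 to 1.58). The partner enzyme gene Taldo1 (transaldolase) had 89.2 and 97.7 FPKM, for a ratio of 1.09 (1.04 to 1.15). Rpia, the ribose 5-phosphate isomerase gene, stood at 18.6 and 23.3 FPKM, for a ratio of 1.26 (1.15 to 1.37), and Rpe, the epimerase gene, at 22.1 and 24.5 FPKM, for a ratio of 1.11 (1.03 to 1.19). Taldo1, Rpe and Pgd had intervals that included the median ratio of all genes, 1.09, and the loci printed for Taldo1 and Rpe hold 2 coding genes each. Tkt was the only pentose phosphate gene of the 7 that reached 1.5-fold.

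The threshold of 1.5-fold fell in a run of close values. Pfkfb4, with a log2 change of 0.59, lay just above it, and Slc2a1 (0.58) and Aldoa (0.57) lay just below. Between 1.5-fold and 2-fold stood 7 genes, namely Hk1, Hk2, Pfkm, Pfkp, Pfkfb4, Eno1 and Tkt, with log2 changes of 0.59 to 0.76. No gene lay between Hk2 at 0.76 and Aldoc at 1.48.

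The 34 genes together made up 1.34% of the summed FPKM of annotated genes in the WT-APC library and 1.66% in the other, at 6991 and 9817 FPKM, for a ratio of 1.40. Aldoa, Ldha, Pkm and Tpi1 held most of it, with sums of 4855 and 6699 FPKM and a ratio of 1.38. For the other 30 genes the ratio was 1.46. The level of a gene with WT APCs and its log2 change were hardly related across the 34 genes (Pearson's r = 0.06, Spearman's rho = 0.20), which share both libraries and are not independent replicates.

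Further genes of the same pathways came from a list of 43 symbols, of which 34 were found and 29 exceeded 1 FPKM in either library. Of these 29, 1 was at least 2-fold higher and 1 at least 2-fold lower, against 2.26% and 1.32% of all annotated genes. A single gene of 29 is close to those shares. The median change was 0.24. The higher one was Eno3, the muscle enolase gene (7.69 FPKM with WT APCs, 16.5 FPKM with OX40L-TG APCs), at a printed locus of 2 coding genes. Ldhd, which encodes a mitochondrial D-lactate dehydrogenase, was the lower one (5.71 and 1.92 FPKM), at a printed locus that overlaps 6 coding genes. Prps1, which encodes the enzyme that makes PRPP from ribose 5-phosphate, stood just short of 2-fold on this scale, at 28.5 and 57.8 FPKM with a plain ratio of 2.03 (1.91 to 2.17). The authors' deposited table lists it with a log2 ratio of 1.06. Its paralogue Prps2 stood at 27.5 and 29.2 FPKM.

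Some further genes of that list are named here after their values were seen. Bsg, which encodes the chaperone of MCT1 and MCT4, stood at 367 FPKM with WT APCs and 661 FPKM with OX40L-TG APCs, a ratio of 1.80 (1.76 to 1.84). Slc2a8, another glucose transporter gene, had 4.13 and 8.14 FPKM, and Pgm1, which links glycogen to glucose 6-phosphate, 85.7 and 137 FPKM. Txnip, whose product restrains glucose uptake, stood at 72.8 and 81.2 FPKM, for a ratio of 1.12 (1.07 to 1.16). Lower with OX40L-TG APCs, though by less than 1.5-fold, were Bpgm (11.5 and 8.97 FPKM), which makes 2,3-bisphosphoglycerate, and the ADP-dependent glucokinase gene Adpgk (16.8 and 14.6 FPKM).

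Comparison lists place these values beside other parts of energy metabolism. The 18 genes of the citric acid cycle had a median change of 0.26 and the 23 genes of oxidative phosphorylation 0.25, with none at 2-fold in either list and 1 and 2 genes at 1.5-fold higher. In the first list the largest changes were those of Pcx, the pyruvate carboxylase gene (6.82 and 11.1 FPKM), Idh2 (28.1 and 41.6 FPKM), Mdh2 (124 and 169.8 FPKM) and Sdhd, which encodes a subunit of succinate dehydrogenase (86.7 and 116 FPKM). In the second they were those of Cox5a (139 and 211 FPKM), Cox7a2 (117 and 177 FPKM), Atp5b (676 and 985 FPKM) and Ndufa9 (65.2 and 91.5 FPKM), which encode subunits of complexes IV, V and I. The 17 kept hypoxia-induced genes outside the pathway had a median of 0.84, and none was lower. Of them, 5 were at least 2-fold higher and 11 at least 1.5-fold higher, against 2.26% and 7.21% of all annotated genes. Among them Ndrg1 stood at 31.8 and 105 FPKM, P4ha2, a collagen prolyl hydroxylase gene, at 7.52 and 23.8 FPKM, and Ero1a, an oxidase of the endoplasmic reticulum listed under its older symbol Ero1l, at 40.1 and 122 FPKM. Adm (0.336 and 3.19 FPKM) and Ddit4 (109 and 227 FPKM), an inhibitor of mTORC1 signalling, were the other two. By median, the 34 glycolysis and pentose phosphate genes thus lay between the mitochondrial lists and the hypoxia list, and no test of these differences was made. All of these lists were chosen with earlier results of these data known.

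**Figure D4:**
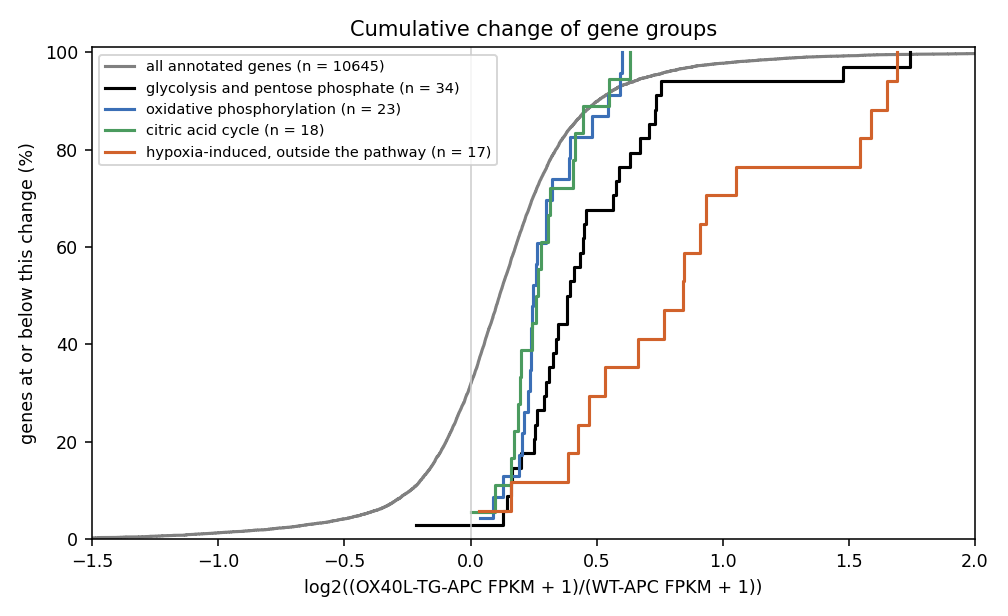
Cumulative share of genes (%) by log2 change (OX40L-TG-APC over WT-APC, after adding 1 FPKM to each) for all annotated genes, the 34 glycolysis and pentose phosphate genes and 3 comparison lists. The curve of the 34 genes (median 0.39) lies to the right of those of the citric acid cycle (0.26), oxidative phosphorylation (0.25) and all genes (0.11) at their medians, and to the left of the hypoxia-induced genes (0.84).

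Genes of known regulators of glycolysis had a median change of 0.08 over the 12 of the list, below that of all genes, and none reached 2-fold. The largest changes were those of Slc7a5, an amino acid transporter gene (19.3 and 32.3 FPKM), Vhl, whose product marks HIF-1 for destruction (19.2 and 24.8 FPKM), Mlxip (8.42 and 6.58 FPKM) and Prkaa1 (12.6 and 14.4 FPKM). The next 3 genes were chosen after their values were seen. Hif1a, the oxygen-regulated subunit of HIF-1, stood at 406 FPKM with WT APCs and 368 FPKM with OX40L-TG APCs, a ratio of 0.906 (0.894 to 0.918), and its partner Arnt at 8.78 and 9.95 FPKM. Myc, which activates glycolytic genes in dividing T cells, stood at 74.1 and 76.2 FPKM, for a ratio of 1.03 (0.983 to 1.07). These are levels of mRNA only, and the part of these regulators in the changes above was not tested.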

How the data were processed

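The series holds 2 RNA sequencing libraries of mouse CD4+ T cells, 1 per condition. Reads were aligned with TopHat2 and levels made with Cuffdiff, per the submitters' processing notes, which name the build mm9. Versions, gene models and filters are not given in the sources used here. The authors deposited FPKM values for each gene in both libraries, per the file headers. Their deposited comparison table holds 398 genes with FPKM, a log2 ratio and a p-value, per the file headers. Its smallest absolute log2 ratio was 1.00 and its largest p-value 0.04985. A gene listed there thus has a large ratio in the same 2 libraries, and the listing is no separate evidence. By median, its WT-APC values were 0.976 of those deposited for all genes, so its log2 ratios differ slightly from those computed here. Printed loci followed GRCm38 and not mm9, since 99.7% overlapped the GRCm38.p6 RefSeq gene of the same Entrez identifier.

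Symbols came from RefSeq (13030 of 13056 identifiers matched). Change was the log2 ratio of OX40L-TG-APC to WT-APC after a pseudocount of 1 FPKM was added to each, a scale that understates differences of low genes. A gene had to reach 1 FPKM in 1 of the libraries. No count model fits FPKM and no test was possible with 1 library per condition. A gene was called higher or lower at 2-fold, with 1.5-fold as an alternative. Depth was estimated from low values of 88 genes with 1 annotated transcript. Their FPKM ratios were whole-number fragment ratios within 0.2% for 70.5% of genes at a step ratio of 1.14, against 1.14% of genes at a shifted ratio. Fragments per gene were estimated from these library sizes and transcript lengths of GENCODE M21, with no correction for fragment length, and gave 95% exact Clopper-Pearson intervals. The steps were checked on simulated fragments.

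Members and lists were chosen with earlier results of these data known. The text names all members, and from each other list every gene at 2-fold or otherwise the 4 with the largest changes, except that some marker genes are not reported here. Promoters were to be shown for the 2 members with the largest changes; Hk2, the next by change, stands in for Slc2a3, a choice made after the values were seen. Python 3.11.15, pandas 2.3.3 and scipy 1.17.1 were used.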

Additional observations from a re-analysis of the deposited data

How the results depend on the processing

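Slc2a3 and Aldoc were the 2 genes at least 2-fold higher, and none was at least 2-fold lower, with a pseudocount of 0.1 or 5 FPKM, with no filter, with a filter of 5 FPKM, under both other scalings and over loci of 1 annotated gene. At a threshold of 1.5-fold, 9 genes were higher. With the median ratio of well-expressed genes set to 1, the median change of the members was 0.28 and that of all genes -0.0022. With total FPKM set equal they were 0.22 and -0.05. The distances, 0.28 and 0.27, were nearly fixed in advance, since each scaling applies a single factor to every gene. Over loci of 1 annotated gene, all 19 members left exceeded the median of all genes with such loci, a smaller number because fewer genes enter. Adding, after the data were seen, the limit of under 5% shared 50-base stretches left 12 genes with a median of 0.36. The median of the further pathway genes was 0.17 with a pseudocount of 5, 0.18 with no filter, 0.12 with the median ratio set to 1 and 0.068 with equal totals. Isoform shares moved little with the values of the authors' comparison table for Slc2a3 and Aldoc.

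No paired analysis was possible because each condition has 1 library. Replicate error is unknown, and leaving out a library leaves no comparison. The intervals cover counting error of estimated fragment numbers only. Low genes such as Eno2, Ldhb and Pfkfb4 have the widest intervals, and genes with near-identical copies or merged loci, such as Eno1, Pgk1, Pkm and G6pdx, have uncertain levels.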
